A study of Mus musculus with 24 samples.

Results

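Vitamin D and mineral transport were followed through 7 genes of the mouse gut: Vdr, Trpv6, S100g, Atp2b1, Trpm6, Slc30a10 and Slc20a1. They were chosen by name, and all 7 were found among the 39179 genes of the read count tables by matching Ensembl identifiers to symbols. All 7 passed the filter on low counts, as did 20502 genes in all. The tables come from 24 RNA sequencing libraries of dissected tissue in 8 groups of 3, with 36567685 to 87975179 gene reads per library. Cdx2 encodes a homeobox transcription factor of the intestinal epithelium, and the series asks what its loss does in the gut.

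Mice of the WT cecum, WT stomach and Cdx2+/- cecum groups were untreated. The Cdx2-/- cecum libraries came from Cdx2f/f::AhCreERT mice given tamoxifen and β-naphthoflavone, which switch on a CreERT driven by the Ah (CYP1A1) promoter. They form 2 sets of 3 libraries with different codes, called set 1 and set 2 here. The Cdx2-/-;Apc+/- cecum and ileum had the same alleles and treatment plus ApcD14/+, a mutant allele of the Wnt inhibitor Apc. Apc+/- ileum came from untreated ApcD14/+ mice. The genotype entries of its replicates 1 and 3 also name Cdx2f/f::AhCreERT, whereas their descriptions call the Cdx2 allele non-floxed. In every comparison of a Cdx2-/- group with an untreated one, treatment goes with Cdx2 genotype, and their effects cannot be told apart there. WT and Cdx2+/- cecum were both untreated. The sources used here do not give ages or strains. They also do not say whether replicates were separate animals, and the p-values cover only the spread among these libraries, which may be technical.

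The labels were checked with the targeted gene. Cdx2 ranged from 408 to 663 CPM (read counts scaled to a common library size) in WT cecum and was at most 1.52 CPM in WT stomach. It ranged from 115 to 118 CPM in the libraries labelled Cdx2+/- cecum and from 130 to 349 CPM in those labelled Cdx2-/- cecum, so the labelled heterozygotes had less Cdx2 RNA than every labelled knockout. Reads outside the deleted part of the gene would still be counted, and the sources used here do not give the floxed part. In the ileum, replicate 2 labelled Cdx2-/-;Apc+/- had 178 CPM, above the 3 Apc+/- libraries at 63.3 to 112 CPM. Mean Cdx2 was 97.8 CPM in Cdx2-/-;Apc+/- ileum and 88.6 CPM in Apc+/- ileum (edgeR, adjusted p = 0.981). A loss of Cdx2 RNA was thus not seen between the ileum groups. Directions drawn from these groups follow the labels. Set 1 had 666 to 816 CPM of Xist and at most 0.25 CPM of the Y-linked Ddx3y, while the other 21 libraries had at most 2.19 CPM of Xist and at least 42.3 CPM of Ddx3y, so sex goes with set. Epithelial markers were present in all samples and gastric markers in the stomach. The summed epithelial markers (8 genes) lay between 8200 and 29956 CPM in every library, and 7 gastric markers summed to at least 199793 CPM in WT stomach. Ileal enterocyte markers did not set the ileum apart. They summed to 1130 to 2987 CPM in Apc+/- ileum, 152 to 9887 CPM in Cdx2-/-;Apc+/- ileum and 1000 to 2327 CPM in WT cecum.

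The hormone form of vitamin D acts through VDR, a nuclear receptor that binds DNA as a partner of RXR and raises the transcription of genes for calcium uptake. In the textbook route across an enterocyte, calcium enters through the apical channel TRPV6, is carried by calbindin-D9k (encoded by S100g) and leaves through the basolateral pump PMCA1 (encoded by Atp2b1). TRPM6 is an apical channel kinase for magnesium in the distal gut. SLC30A10 exports manganese, and its gene is induced by vitamin D in the intestine. SLC20A1 (PiT1) is a sodium-dependent phosphate transporter.

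The promoters of 3 of the genes are shown because S100g and Trpv6, both genes of the vitamin D calcium route, moved in opposite directions in the cecum, and Trpm6 had the steepest fall. All windows are the 250 bases before the transcription start in RefSeq, build GRCm38.p6, written 5′ to 3′ on the gene's strand. S100g is at chrX:162964600-162964849 (minus strand), Trpv6 at chr6:41636406-41636655 (minus strand) and Trpm6 at chr19:18749480-18749729 (plus strand). Capitals mark every match, on either strand, to any of 4 half-sites of the kind that VDR and other nuclear receptors bind. The commonest of these is AGGTCA, and the others are given below with their shares.
S100g: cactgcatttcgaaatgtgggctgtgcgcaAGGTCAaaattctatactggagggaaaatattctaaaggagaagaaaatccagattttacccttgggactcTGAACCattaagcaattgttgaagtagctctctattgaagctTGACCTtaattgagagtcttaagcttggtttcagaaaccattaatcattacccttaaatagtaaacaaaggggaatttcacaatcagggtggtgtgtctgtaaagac
Trpv6: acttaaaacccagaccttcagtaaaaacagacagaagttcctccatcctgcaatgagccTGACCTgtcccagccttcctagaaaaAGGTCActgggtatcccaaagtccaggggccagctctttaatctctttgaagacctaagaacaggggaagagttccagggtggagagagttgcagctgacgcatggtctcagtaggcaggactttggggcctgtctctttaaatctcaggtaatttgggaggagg
Trpm6: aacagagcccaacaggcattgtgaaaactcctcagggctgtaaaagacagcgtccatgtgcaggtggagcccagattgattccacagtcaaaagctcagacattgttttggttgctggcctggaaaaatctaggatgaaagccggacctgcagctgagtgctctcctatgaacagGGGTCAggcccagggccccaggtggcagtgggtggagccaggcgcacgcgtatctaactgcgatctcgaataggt
Both S100g and Trpv6 hold AGGTCA in each orientation, 220 to 215 and 107 to 102 bases before the start in S100g, and 165 to 160 and 191 to 186 bases before it in Trpv6. AGGTCA was found in 14% of 32851 mouse promoter windows of this length, AGTTCA in 11.8%, GGGTCA in 11.6% and GGTTCA in 8.85%. The DR3 vitamin D response element, a pair of such half-sites 3 bases apart, was in 0.0396% of windows and in none of the 9 windows of the 7 genes. Of the AT-rich letters of the kind CDX2 binds, only TTTATG and TTTATT were searched, and other forms were not. Neither had a match in those 9 windows: TTTATG was in 10.8% of all windows and TTTATT in 18.1%. The TATA box letters TATAAA, in 12.4% of all windows, had none. Vdr held AGTTCA 91 to 86 bases before its start, each of the 2 Slc20a1 windows held an AGGTCA, and Atp2b1 and Slc30a10 held no half-site. The opposite strand was searched for every motif, and of these motifs only the DR3 element contains others. A match is a description of letters in this window only.

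In WT cecum, 6 of the 7 genes were expressed at a high level and Trpv6 was near the floor. Per kilobase of exon, so that genes can be compared, Slc20a1 had a mean level of 186 CPM per kb, S100g 144, Vdr 113, Atp2b1 70.7, Slc30a10 46.2, Trpm6 43.2 and Trpv6 0.0637 (n = 3). The carrier and the pump of the calcium route were thus present in WT cecum at levels far above the entry channel. In what follows, levels are CPM, changes are log2 fold changes with their SE, estimated by edgeR's quasi-likelihood test over all 24 libraries, adjusted p-values are Benjamini-Hochberg over 20502 genes, and a gene is called at an adjusted p under 0.05.

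**Figure D1:**
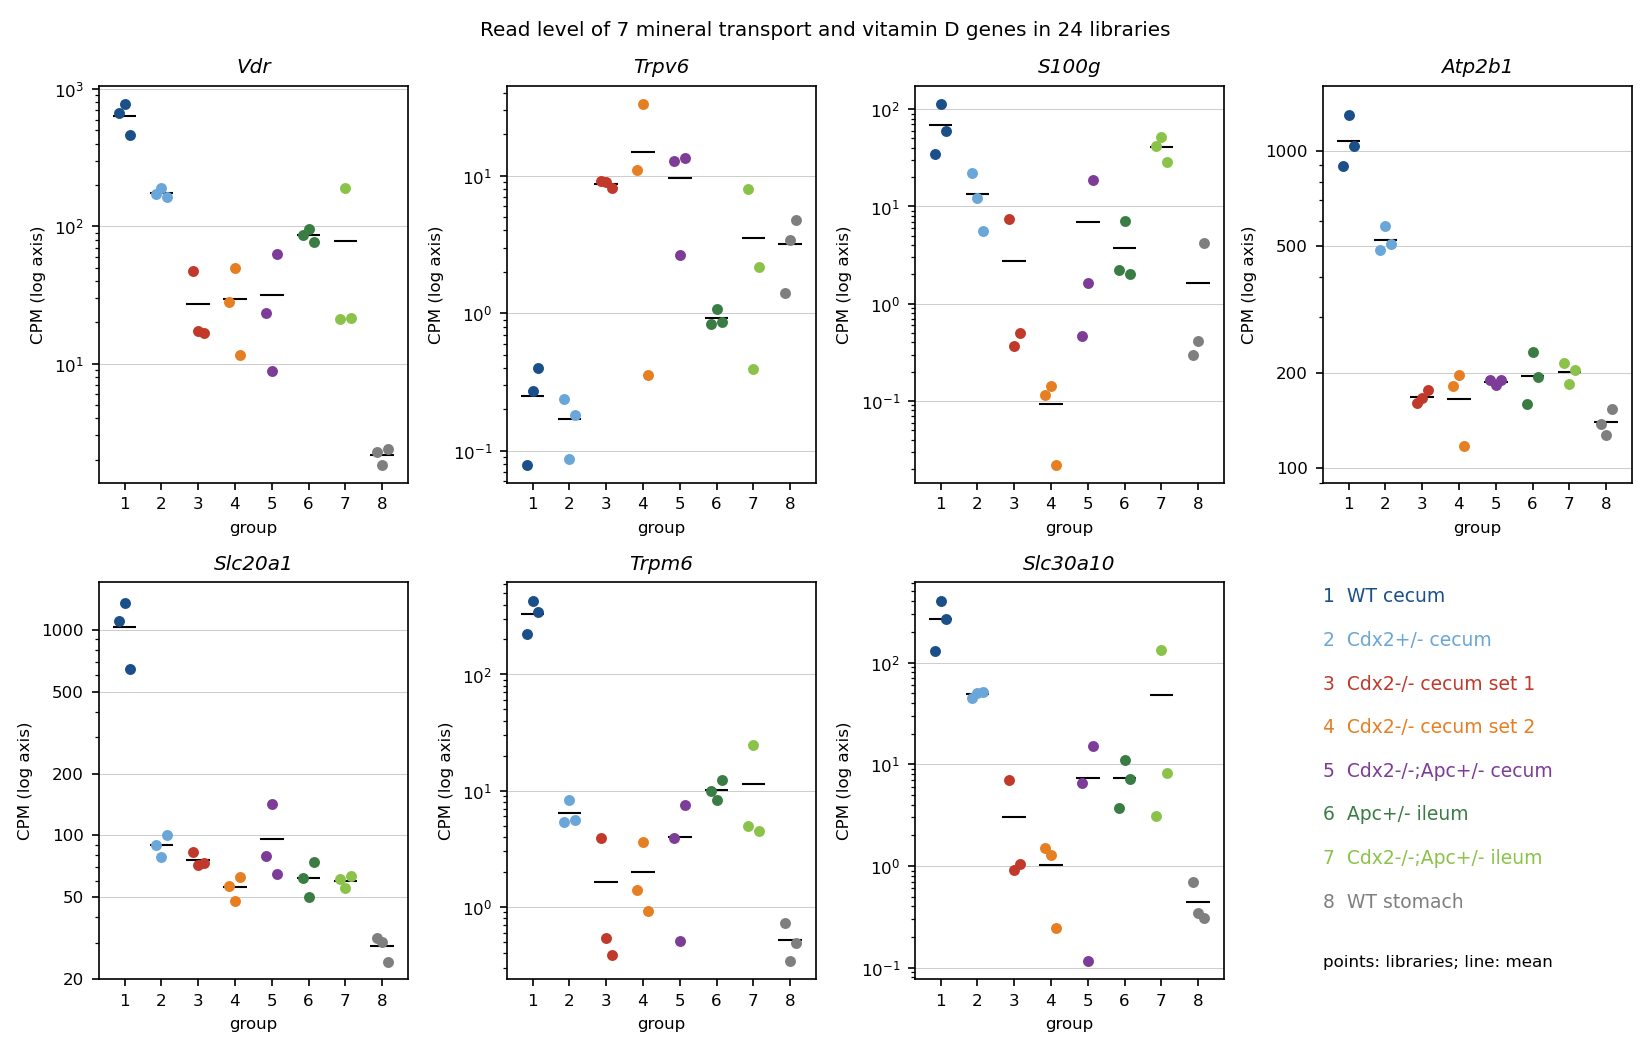
Level of each of the 7 genes in the 24 libraries, in CPM on a log axis whose range differs between panels, by group along the x axis (points, libraries; lines, group means). WT cecum is the highest group for 6 genes, while the mean of Trpv6 is lowest in WT and Cdx2+/- cecum and single libraries reach up to 33.1 CPM in Cdx2-/- cecum.

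The Cdx2-/- label went with a fall of 6 genes in the cecum and a rise of Trpv6. Against WT cecum, Cdx2-/- cecum was called lower for Vdr, S100g, Atp2b1, Trpm6, Slc30a10 and Slc20a1 and higher for Trpv6. The mean level was 186-fold lower for Trpm6, 134-fold for Slc30a10, 48.2-fold for S100g, 22.5-fold for Vdr, 15.7-fold for Slc20a1 and 6.48-fold for Atp2b1. That of Trpv6 was 46.9-fold higher. Of all genes tested, 26.9% were called higher and 26.2% lower in the same comparison. The median log2 fold change was -4.49 over the 7 genes and 0.04 over all genes. Each of the 7 calls held in all 18 alternatives that were run for it, including each Cdx2-/- set alone.

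The receptor gene Vdr (ENSMUSG00000022479; chr15:97854425-97910630, minus strand, GRCm38) had 674, 779 and 465 CPM in WT cecum. It had 47.2, 17.4 and 16.8 CPM in set 1 and 28.2, 49.7 and 11.5 CPM in set 2 of Cdx2-/- cecum. The 6 knockout libraries lay far under the WT libraries without overlap, and the 2 sets overlapped each other. Vdr fell by 4.49 ± 0.63 on the log2 scale (adjusted p = 7.91e-06, edgeR). Averages over both sets, such as this one, carry the within-set spread alone, and a gap between sets does not widen their SE.

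Trpv6 (ENSMUSG00000029868; chr6:41620624-41636405, minus strand), the calcium entry channel, had 0.0795, 0.272 and 0.401 CPM in WT cecum, from 3, 13 and 27 reads. In Cdx2-/- cecum it had 9.07, 9.05 and 8.07 CPM in set 1 and 11, 33.1 and 0.356 CPM in set 2, from 16 to 1617 reads. Of the 6 knockout libraries, 5 were above every WT library, and set 2 replicate 6 lay within the WT range. The same library had the most Cdx2 RNA (349 CPM), the least Vdr (11.5 CPM) and the least Atp2b1 (117 CPM) of the 6. Trpv6 rose by 5.43 ± 1.17 (adjusted p = 0.00066), and by 4.74 without set 2 replicate 5, the highest library (adjusted p = 0.00121).

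S100g (ENSMUSG00000040808; chrX:162961992-162964599, minus strand), the calcium carrier calbindin-D9k, had 34.5, 113 and 59.5 CPM in WT cecum. It had 7.43, 0.364 and 0.504 CPM in set 1 and 0.115, 0.143 and 0.0222 CPM in set 2, the last 3 values from 6, 7 and 1 reads. No knockout library reached the WT range, and set 2 lay wholly under set 1. S100g fell by 7.04 ± 1.14 (adjusted p = 4.00e-05), a value that averages the 2 sets on the log scale and so differs from the ratio of means above. Over 18 alternatives the change ran from -9.46 to -4.57, and it was -8.38 without set 1 replicate 1. Its locus overlaps Ctps2 on the other strand, which had 18.7 to 25.1 CPM in WT cecum and 21.5 to 29 CPM in Cdx2-/- cecum.

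Atp2b1 (ENSMUSG00000019943; chr10:98914406-99026143, plus strand), the calcium exit pump, had 893, 1301 and 1035 CPM in WT cecum. In Cdx2-/- cecum it had 160, 166 and 176 CPM in set 1 and 181, 197 and 117 CPM in set 2. The knockout libraries lay close together and far from the WT range. The change was the smallest of the 7 genes and had the smallest SE, at -2.70 ± 0.15 (adjusted p = 1.72e-10). In the knockout the calcium route thus had more entry channel RNA and less RNA of the carrier, the pump and the receptor.

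Trpm6 (ENSMUSG00000024727; chr19:18749983-18892511, plus strand), the magnesium channel, had 224, 433 and 344 CPM in WT cecum. It had 3.93, 0.538 and 0.387 CPM in set 1 and 1.4, 3.62 and 0.911 CPM in set 2, a change of -7.52 ± 0.77 (adjusted p = 2.02e-07). The highest knockout library, at 3.93 CPM, was far under the lowest WT library, at 224 CPM. The change was -8.44 without set 1 replicate 1. The Trpm6 locus overlaps Gm24190, which had at most 2 reads in any library.

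Slc30a10 (ENSMUSG00000026614; chr1:185454848-185468762, plus strand), the manganese exporter, had 131, 407 and 270 CPM in WT cecum. It had 7.05, 0.902 and 1.04 CPM in set 1 and 1.5, 1.29 and 0.245 CPM in set 2, a change of -7.26 ± 1.08 (adjusted p = 1.66e-05). Set 1 replicate 1 was the highest of the 6 knockout libraries, as it was for S100g and Trpm6. Without it the change was -8.08. The gene overlaps Gm2061 on the other strand, which went from 18 to 38.1 CPM in WT cecum to 0.0889 to 1.32 CPM in Cdx2-/- cecum. The sources used here do not say whether counting used strand, so reads of the pair cannot be told apart.

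Slc20a1 (ENSMUSG00000027397; chr2:129198764-129211616, plus strand), the phosphate transporter, had 1105, 1356 and 648 CPM in WT cecum. It had 83.3, 72 and 73.2 CPM in set 1 and 56.6, 48.1 and 63 CPM in set 2, a change of -3.99 ± 0.22 (adjusted p = 1.65e-10). Knockout libraries reached at most 83.3 CPM, and the highest of set 2 was under the lowest of set 1. Its antisense neighbour 9830144P21Rik went from 20.5 to 32.8 CPM in WT cecum to 1.46 to 2.15 CPM in Cdx2-/- cecum, again without a strand setting to part them.

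Markers of other cells moved with these falls. The 6 measured markers of absorptive colonocytes summed to 21623 to 41533 CPM in WT cecum, 1300 to 3622 CPM in set 1 and 1095 to 2031 CPM in set 2, and all 6 were called lower, with none at 0. Set 1 replicate 1, highest for S100g, Trpm6 and Slc30a10, also had the highest sum of the knockout libraries, 3622 CPM. The epithelial sum was 18105 to 28577 CPM in WT cecum and 8323 to 20176 CPM in Cdx2-/- cecum, and the fibroblast sum was 420 to 1114 CPM in WT cecum and 1330 to 2598 CPM in Cdx2-/- cecum. Their part in the result was not tested. In bulk tissue, fewer cells of a type and less RNA per cell cannot be told apart.

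**Figure D2:**
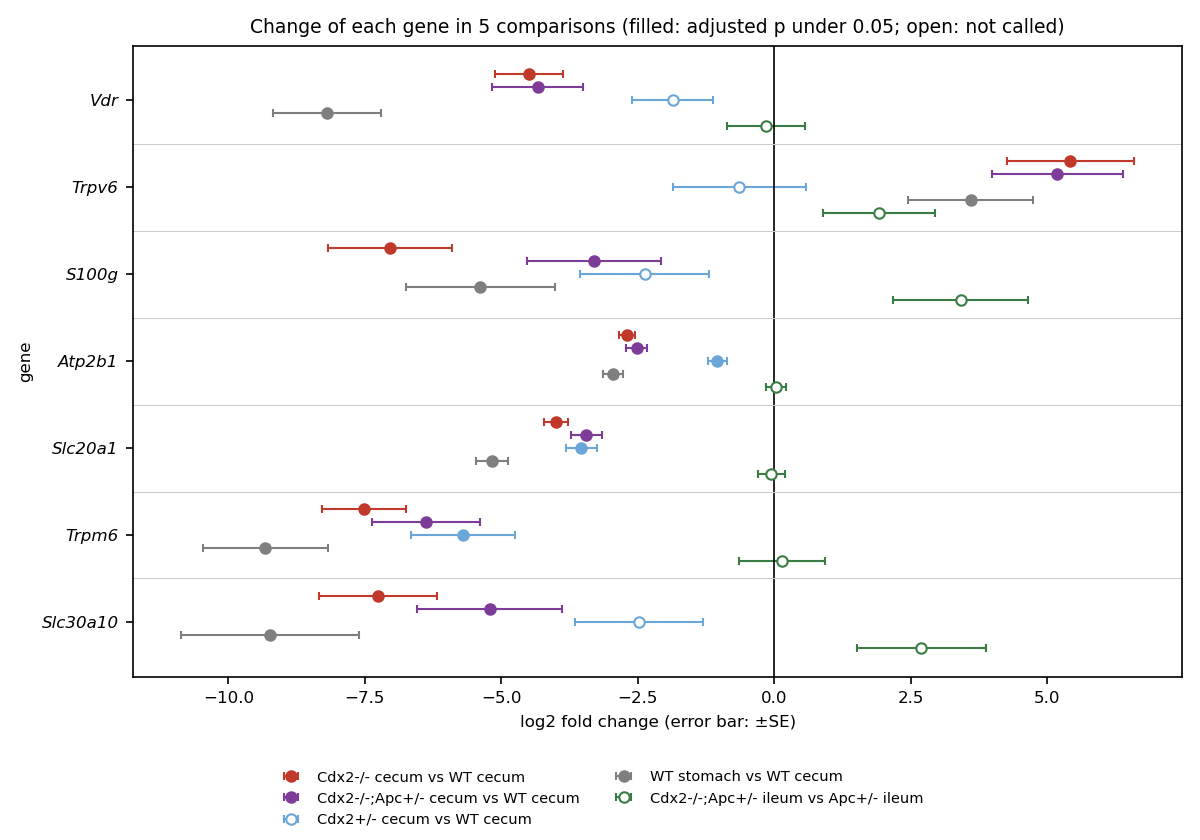
Log2 fold change (x axis, ± SE) of the 7 genes in 5 comparisons, filled where the adjusted p is under 0.05 and open where it is not. In Cdx2-/- and Cdx2-/-;Apc+/- cecum 6 genes lie left of zero and Trpv6 right of it, and all ileum points are open.

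In Cdx2+/- cecum the 6 genes that fell in the knockout had means under those of WT cecum, and Trpv6 was inside the WT range. Slc20a1, Trpm6 and Atp2b1 were called lower than in WT cecum, and no gene was called higher, where 17.1% of all genes were called higher and 17.3% lower. Slc20a1 had 90.3, 78.3 and 101 CPM, a change of -3.53 ± 0.28 (adjusted p = 5.46e-08). Trpm6 had 5.41, 8.32 and 5.57 CPM, a change of -5.70 ± 0.96 (adjusted p = 0.000167). Atp2b1 fell less, with 488, 579 and 508 CPM (-1.04 ± 0.18, adjusted p = 0.00022).

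The other 4 genes were not called in Cdx2+/- cecum. Vdr had 172, 192 and 163 CPM (-1.86 ± 0.74, adjusted p = 0.0592), S100g 22.3, 12.1 and 5.64 CPM (-2.37 ± 1.18, adjusted p = 0.129) and Slc30a10 45, 49.6 and 51.1 CPM (-2.47 ± 1.17, adjusted p = 0.111). For these 3 genes all Cdx2+/- libraries lay under all WT libraries, though the share of all genes that separate so is not given here. The fit over 8 groups takes 1 spread per gene from all 24 libraries. With the spread taken from the WT and Cdx2+/- cecum libraries alone, all 3 passed, at adjusted p = 0.000908 for Vdr, 0.0222 for S100g and 0.00345 for Slc30a10. That makes 6 genes called lower, beside 3029 lower and 3287 higher of all 18037 genes tested in that setting. DESeq2 called Vdr too (-1.90, adjusted p = 0.0214), which makes 4, beside 4112 lower and 3550 higher of all 20502 genes. Trpv6 had 0.239, 0.0868 and 0.183 CPM, inside the WT range (-0.64 ± 1.22, adjusted p = 0.723).

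Cdx2+/- cecum differed from WT in its cell markers too. The colonocyte sum was 7590 to 9199 CPM, and 2 of its 6 markers were called lower: Slc26a3, an intestinal chloride exchanger, fell by 4.95 ± 1.25 (adjusted p = 0.00478), and the water channel gene Aqp8 was the other. Krt20, a keratin of differentiated intestinal cells, was at 3312 to 4276 CPM in Cdx2+/- cecum and 1994 to 4790 CPM in WT cecum. The smooth muscle sum was 117 to 524 CPM against 1118 to 3786 CPM in WT cecum, and the gastric sum was 24395 to 26595 CPM against 4.46 to 1021 CPM. All 6 squamous epithelium markers were called higher. Their part in the changes of the 7 genes was not tested.

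Set directly against Cdx2+/- cecum, Cdx2-/- cecum was called lower for Vdr, S100g, Atp2b1, Trpm6 and Slc30a10 and higher for Trpv6, beside 19.7% of all genes higher and 20.6% lower. Trpv6 showed the largest difference, a mean 69.4-fold higher (6.07 ± 1.22, adjusted p = 0.001), and no knockout library overlapped the Cdx2+/- range. Slc30a10 was 24.2-fold lower (-4.78 ± 1.00, adjusted p = 0.00129) and Vdr 6.18-fold lower (-2.63 ± 0.60, adjusted p = 0.00247). The pump gene Atp2b1 differed by -1.66 ± 0.15 (adjusted p = 1.26e-06). Slc20a1 was not called (-0.46, 95% interval from -0.92 to 0.00, adjusted p = 0.0973), but was with only the groups compared (-0.46, adjusted p = 0.00978) and against set 2 alone (-0.68, adjusted p = 0.0387).

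The calls of S100g and Trpm6 in that comparison were less stable. S100g differed by -4.67 ± 1.09 (adjusted p = 0.00281), but set 1 replicate 1 at 7.43 CPM lay within the Cdx2+/- range, and against set 1 alone the difference was -2.25 (adjusted p = 0.167). Trpm6 differed by -1.83 ± 0.68 (adjusted p = 0.0393), and its call was lost in 13 of 18 alternatives. Among those were leaving out set 1 replicate 2 or 3, set 2 replicate 4 or 6, or any of the 3 Cdx2+/- libraries, with values between -1.60 and -1.94. Another was set 1 replicates 2 and 3, the most alike pair of libraries within a group, taken as 1 (-1.63, adjusted p = 0.0769). Without set 1 replicate 1 the difference was -2.74 (adjusted p = 0.00357).

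Gastric marker sums were set beside Trpv6. The sum was 24395 to 26595 CPM in Cdx2+/- cecum, where Trpv6 was at most 0.239 CPM, and 865 to 2189 CPM in Cdx2-/-;Apc+/- cecum, where Trpv6 was 2.64 to 13.4 CPM. In the knockout sets the sum was 4686 to 21603 CPM in set 1 and 1199 to 4002 CPM in set 2. WT stomach had both above WT cecum, with a sum of at least 199793 CPM and 1.4 to 4.79 CPM of Trpv6. In Cdx2-/-;Apc+/- ileum, replicates 1, 2 and 3 had sums of 3738, 204 and 6185 CPM with 7.99, 0.396 and 2.17 CPM of Trpv6. Replicate 2 was lowest for both there, but the largest sum and the most Trpv6 lay in different libraries. The part of gastric cells in the Trpv6 level was not tested.

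**Figure D3:**
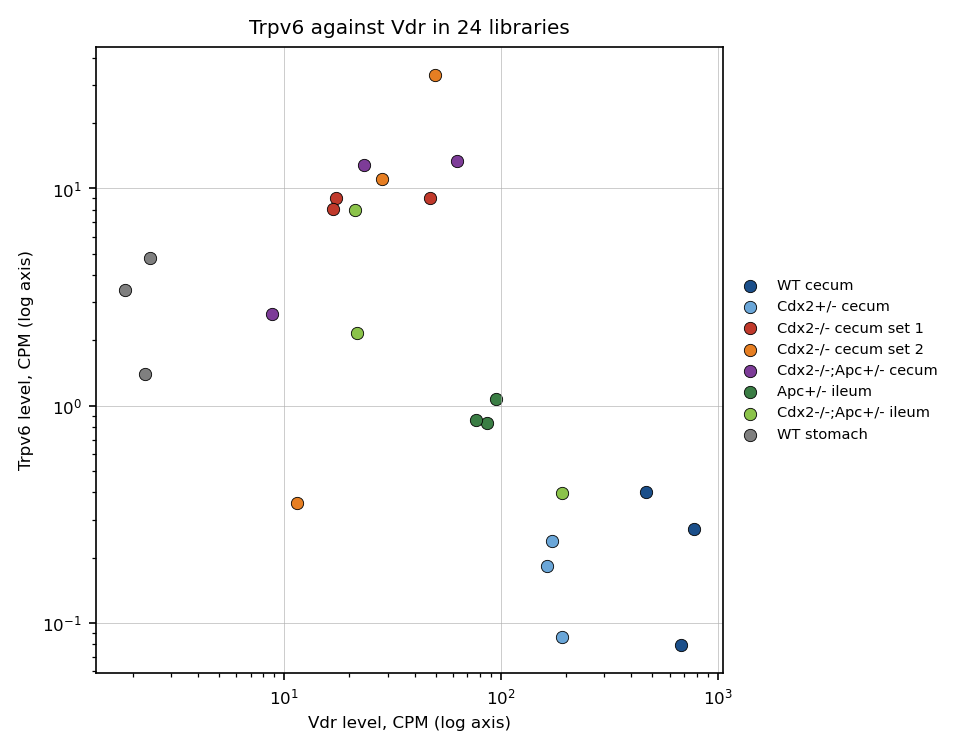
Trpv6 (y axis) against Vdr (x axis) in the 24 libraries, both in CPM on log axes and coloured by group. WT and Cdx2+/- cecum lie at high Vdr and low Trpv6, knockout ceca at low Vdr and mostly high Trpv6, and set 2 replicate 6 at 11.5 CPM of Vdr and 0.356 CPM of Trpv6.

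With the ApcD14/+ allele added, Cdx2-/-;Apc+/- cecum was called lower than WT cecum for 6 genes and higher for Trpv6, beside 26.1% of all genes lower and 26.6% higher. These values share the WT libraries with the comparison of Cdx2-/- cecum above. Trpv6 had 12.8, 2.64 and 13.4 CPM, all above the WT libraries (5.19 ± 1.20, adjusted p = 0.00133). Vdr had 23.3, 8.79 and 63 CPM (-4.33 ± 0.83, adjusted p = 0.000246) and Atp2b1 189, 183 and 190 CPM (-2.52 ± 0.19, adjusted p = 1.31e-08), neither overlapping WT.

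Among the transporters in Cdx2-/-;Apc+/- cecum, Trpm6 had 3.91, 0.509 and 7.52 CPM (-6.38 ± 0.99, adjusted p = 3.30e-05) and Slc30a10 6.57, 0.116 and 15.1 CPM (-5.21 ± 1.33, adjusted p = 0.00299). Replicate 2 was the lowest library and replicate 3 the highest for Vdr, Trpm6 and Slc30a10 alike. For Slc20a1 the order was the other way, with 79.6, 142 and 65.2 CPM (-3.44 ± 0.28, adjusted p = 3.48e-08). S100g had 0.468, 1.64 and 18.9 CPM, so that 1 library was far above the others (-3.30 ± 1.23, adjusted p = 0.0305). Its call was lost without WT replicate 2 (-2.75, adjusted p = 0.0953) and without Cdx2-/-;Apc+/- cecum replicate 1 (-2.80, adjusted p = 0.0843) or 2 (-2.83, adjusted p = 0.101), and with the spread of the 2 groups alone (-3.24, adjusted p = 0.0598). Without replicate 3 the value was -6.03 (adjusted p = 0.0026). The colonocyte sum was 1358 to 2225 CPM in these libraries, with all 6 markers called lower than in WT cecum, 5 of 8 epithelial markers were called lower and 5 of 6 fibroblast markers higher. Their part in the result was not tested.

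Between Cdx2-/-;Apc+/- and Cdx2-/- cecum, S100g alone was called, higher by 3.74 ± 1.09 (adjusted p = 0.04), where 3.93% of all genes were called higher and 4.50% lower. That call rested on replicate 3 at 18.9 CPM: without it the difference was 1.01 (adjusted p = 0.664), and the call was lost in 12 of 18 alternatives. For the genes not called, the 95% interval of the log2 difference ran from -1.16 to 1.48 for Vdr, -2.02 to 1.54 for Trpv6, -0.15 to 0.50 for Atp2b1, -0.34 to 2.61 for Trpm6, -0.01 to 4.11 for Slc30a10 and 0.09 to 1.01 for Slc20a1 (adjusted p = 0.12).

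Between the 2 sets of Cdx2-/- cecum, none of the 7 genes was called by edgeR, where 4.03% of all genes were called higher in set 2 and 6.45% lower. At an unadjusted p under 0.05, 1 gene passed, S100g, which was lower in set 2 without overlap (-4.85 ± 1.59, adjusted p = 0.0569). The share of all genes at that unadjusted cut is not given here. DESeq2 called S100g, and no other of the 7 (adjusted p = 0.00262), beside 1398 higher and 1554 lower of all 20502 genes. The sets differ in sex by Xist and in the gastric sum, and S100g lies on the X chromosome. The part of these in the result was not tested.

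In the ileum none of the 7 genes was called between Cdx2-/-;Apc+/- and Apc+/-, where 0.395% of all genes were called higher and 0.0488% lower. At an unadjusted p under 0.05, 2 genes passed in edgeR, S100g and Slc30a10 (adjusted p = 0.299 and 0.443). The share of all genes at that cut is not given here. DESeq2 also called none of the 7, beside 311 higher and 105 lower of all 20502 genes. S100g had 41.4, 51.5 and 28.4 CPM in Cdx2-/-;Apc+/- ileum and 2.2, 7.11 and 2.04 CPM in Apc+/- ileum. Every mutant library was above every control, a mean 10.7-fold (3.42 ± 1.24, adjusted p = 0.299), but the difference did not pass the test.

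For Vdr, Slc30a10, Trpm6 and Trpv6, replicate 2 of Cdx2-/-;Apc+/- ileum stood apart from replicates 1 and 3. Vdr was 21.2, 191 and 21.6 CPM against 76.9 to 95.1 CPM in Apc+/- ileum, so replicates 1 and 3 were under the controls and replicate 2 above them. Slc30a10 was 3.1, 132 and 8.18 CPM against 3.74 to 11.1 CPM. Trpm6 was 4.93, 24.5 and 4.49 CPM against 8.37 to 12.3 CPM, in the same pattern as Vdr. Trpv6 was the mirror image, with 7.99, 0.396 and 2.17 CPM against 0.834 to 1.08 CPM. The library had the most Cdx2 RNA of the group (178 CPM), 2016 CPM of the ileal bile acid binding gene Fabp6 against 1.34 and 17.9 CPM in the others, and an ileal enterocyte sum of 9887 CPM against 152 and 849 CPM. Without this library the log2 difference between the groups was -2.01 for Vdr (adjusted p = 0.112), -1.11 for Trpm6 (adjusted p = 0.578) and -0.38 for Slc30a10 (adjusted p = 0.912), and none was called. Of all 20926 genes tested without it, 367 were called higher and 216 lower, against 81 and 10 of 20502 with all libraries kept. Without Apc+/- ileum replicate 1 instead, 3 of 20959 genes were called higher and 0 lower. The number of genes called in the ileum thus depended strongly on single libraries. The part of the markers in the spread was not tested.

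Atp2b1 and Slc20a1 varied least in the ileum. Atp2b1 had 215, 184 and 204 CPM in the mutant and 159, 232 and 194 CPM in Apc+/- ileum, with a 95% interval of the log2 difference from -0.33 to 0.42. Slc20a1 had 61.6, 55.6 and 63.8 CPM and 62.4, 50.2 and 74.1 CPM, with an interval from -0.59 to 0.49. The intervals were -1.67 to 1.38 for Vdr, -1.53 to 1.83 for Trpm6, -0.25 to 4.09 for Trpv6, 0.79 to 6.05 for S100g and 0.18 to 5.22 for Slc30a10. For all 6 genes that fell in Cdx2-/-;Apc+/- cecum against WT cecum, that fall lay outside the ileum interval, which takes in all libraries and so the spread from replicate 2.

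Apc+/- ileum was itself unlike WT cecum: 6 genes were called lower and none higher, beside 27.2% of all genes lower and 28.1% higher. The changes were -2.46 ± 0.19 for Atp2b1 (adjusted p = 9.64e-09), -2.89 ± 0.77 for Vdr (adjusted p = 0.00382), -4.06 ± 0.29 for Slc20a1 (adjusted p = 5.03e-09), -4.19 ± 1.28 for S100g (adjusted p = 0.00957), -5.03 ± 0.93 for Trpm6 (adjusted p = 0.00016) and -5.19 ± 1.33 for Slc30a10 (adjusted p = 0.0028). Trpv6 had 0.834, 1.08 and 0.865 CPM, above all WT cecum libraries, and was not called (1.81 ± 1.11, adjusted p = 0.172), but was called higher with only the groups compared (1.88, adjusted p = 0.0228). Apc+/- ileum overlapped Cdx2-/- cecum for Atp2b1 and Slc20a1, and for S100g and Slc30a10 only through set 1 replicate 1. It was above Cdx2-/- cecum for Vdr and Trpm6. The colonocyte sum was 888 to 1387 CPM in Apc+/- ileum, and its part in these changes was not tested. Tissue, Apc allele and any Cre alleles differ between these groups and cannot be told apart.

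The difference between the changes in cecum and ileum was tested in a contrast chosen after seeing the data. It subtracts the change from Apc+/- to Cdx2-/-;Apc+/- in the ileum from the change from WT to Cdx2-/-;Apc+/- in the cecum, whose control lacks the Apc allele. It was called lower for 6 genes, with 18.3% of all genes lower and 16.4% higher. The value was -2.57 for Atp2b1 (adjusted p = 1.89e-06), -3.39 for Slc20a1 (4.00e-06), -6.54 for Trpm6 (0.000516), -7.91 for Slc30a10 (0.00225), -4.19 for Vdr (0.00525) and -6.72 for S100g (0.00617). Without ileum replicate 2 of Cdx2-/-;Apc+/- the values of Vdr and Slc30a10 shrank to -2.32 (adjusted p = 0.037) and -4.83 (adjusted p = 0.0142). Trpv6 was not called (3.27 ± 1.48, adjusted p = 0.095), but was with DESeq2 (adjusted p = 0.0381) and without ileum replicate 1 (4.72, adjusted p = 0.0231).

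The 2 mutant tissues, Cdx2-/-;Apc+/- cecum and ileum, gave no call for any of the 7 genes, where 6.60% of all genes were called higher in the cecum and 9.59% lower. At an unadjusted p under 0.05, 3 genes passed in edgeR: S100g (-2.53, adjusted p = 0.157), Slc30a10 (-2.72, adjusted p = 0.128) and Slc20a1 (0.66, adjusted p = 0.0825). The share of all genes at that unadjusted cut is not given here. DESeq2 called none of the 7. Without cecum replicate 3, 2 genes were called, S100g (-5.27, adjusted p = 0.0185) and Slc20a1 (0.88, adjusted p = 0.0305). In that setting 1263 of all 20987 genes were called higher and 1766 lower.

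WT stomach, a tissue with almost no Cdx2, had the lowest mean of the 8 groups for Vdr, Atp2b1, Trpm6, Slc30a10 and Slc20a1. Against WT cecum 6 genes were called lower and Trpv6 higher, beside 21.6% of all genes lower and 22.1% higher. Vdr had 2.29, 1.84 and 2.4 CPM, a mean 294-fold lower. Trpm6 was 641-fold lower, at 0.729, 0.341 and 0.491 CPM, and Slc30a10 603-fold lower, at 0.69, 0.341 and 0.309 CPM. Slc20a1 was 36-fold lower and Atp2b1 7.71-fold lower. S100g had 0.296, 0.416 and 4.22 CPM (-5.38 ± 1.36, adjusted p = 0.00343). The colonocyte sum was 262 to 613 CPM in WT stomach.

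Trpv6 had 1.4, 3.41 and 4.79 CPM in WT stomach, above all WT cecum libraries (3.60 ± 1.14, adjusted p = 0.0146). Without WT cecum replicate 1, the library with 3 reads, the call was lost (3.23, adjusted p = 0.0622). Ordered by mean, Trpv6 ran from set 2 and Cdx2-/-;Apc+/- cecum through set 1, Cdx2-/-;Apc+/- ileum, WT stomach and Apc+/- ileum to WT and Cdx2+/- cecum. Among neighbours in this order, the ranges of the first pair, of Cdx2-/-;Apc+/- cecum and set 1, of Cdx2-/-;Apc+/- ileum and WT stomach, and of the last pair overlapped. Groups further apart overlapped too. Set 2 ran from 0.356 to 33.1 CPM and Cdx2-/-;Apc+/- ileum from 0.396 to 7.99 CPM, and both reached into WT cecum, at up to 0.401 CPM.

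The order of the other genes had WT cecum first in every case. For Vdr and Atp2b1, Cdx2+/- cecum came next and overlapped neither neighbour. Vdr in WT cecum was 639 ± 160 CPM (SD, n = 3), in Cdx2+/- cecum 176 ± 14.9, in Apc+/- ileum 86.1 ± 9.1, and in the Cdx2-/- cecum 28.4 ± 16.4 (n = 6). For S100g the second group was Cdx2-/-;Apc+/- ileum at 40.4 ± 11.6 CPM, which overlapped WT cecum at 68.9 ± 39.9 CPM. For Slc20a1 the middle 6 groups had means from 55.9 to 95.5 CPM, and each overlapped the next.

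Within the 9 knockout cecum libraries some genes varied together. Pearson's r of log2 CPM was 0.85 for Vdr and Trpm6, 0.84 for Vdr and Slc30a10, 0.82 for Trpm6 and Slc30a10, and 0.72 for Vdr and Trpv6. It was 0.86 for Trpv6 and Atp2b1 and -0.55 for Vdr and Slc20a1. Cdx2 and Atp2b1 had an r of -0.90. These are descriptions over libraries of 3 groups that differ in depth, gastric marker sum and sex. Set 1 had at least 57344975 gene reads per library, and set 2 and Cdx2-/-;Apc+/- cecum had at most 46006214. The part of these differences in the correlations was not tested, and set 2 replicate 6 is extreme in several of the pairs.

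The genes most like each of the 7 over all 24 libraries were sought among 13993 genes by Pearson's r of log2 CPM, a measure that the 8 groups largely set. Vdr was closest to Nlrp6 (0.987), Hrh1 (0.981) and Ces2e (0.979). Trpv6 was closest to Pcdhb14 (0.915), Camk1 (0.905) and Spata1 (0.904), and S100g had the loosest neighbours, Fam118a (0.809), Mapk15 (0.797) and Flywch2 (0.794). Atp2b1 was followed by Asap1 (0.956), Prkaa2 (0.955) and Tmcc1 (0.945), and Slc20a1 by Tubb2a (0.961), Mpp6 (0.957) and Abhd17b (0.954). For Trpm6 they were Ank (0.967), Slc25a43 (0.959) and Slc26a3 (0.947), and for Slc30a10 Slc17a1 (0.939), Btnl1 (0.936) and Fam78a (0.931).

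The other genes of these pathways moved in both directions in Cdx2-/- against WT cecum. Of 13 tested genes of vitamin D metabolism and receptor partners, 4 were called higher and 3 lower (median log2 fold change 0.19, against 0.04 over all genes), beside 26.9% higher and 26.2% lower of all genes tested. Rxra, the DNA-binding partner of VDR, fell by 1.87 ± 0.20 (adjusted p = 2.81e-07), from 237 to 362 CPM in WT cecum to 80 to 96.4 CPM. The coactivator gene Ncoa1 fell by 1.47 ± 0.11 (adjusted p = 3.89e-09), and Pdia3, which encodes a protein disulfide isomerase also described as a membrane vitamin D binder, rose by 1.41 ± 0.18 (adjusted p = 2.65e-06). Cyp24a1, the vitamin D catabolic enzyme and a standard readout of VDR activity, had 14 reads over all 24 libraries and was not tested.

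Of 8 tested genes known to be induced by vitamin D in mouse intestine, 4 are Trpv6, S100g, Atp2b1 and Slc30a10 again. Of the other 4, Slc37a2 was called lower and Cldn2 higher, and Cldn12 and Cyp3a11 were not called. Slc37a2, a sugar phosphate transporter gene, had 1914 to 2825 CPM in WT cecum and 2.54 to 11 CPM in Cdx2-/- cecum (-8.86 ± 0.50, adjusted p = 2.44e-10). In Cdx2+/- cecum it was already at 6.54 to 16.5 CPM (-7.63 ± 0.66, adjusted p = 1.29e-07). Cldn2, a claudin that lets calcium and sodium pass between cells, rose instead, from 23.3 to 57.2 CPM in WT cecum to 983 to 2200 CPM (5.33 ± 0.42, adjusted p = 7.99e-09). It also rose in Cdx2+/- cecum, to 410 to 509 CPM (3.74 ± 0.40, adjusted p = 1.43e-06), where Trpv6 was inside the WT range.

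Among 10 tested genes of other calcium transport, 4 were called lower and 1, Cldn2, higher (median -0.61), beside 26.2% and 26.9% of all genes. The sodium-calcium exchanger gene Slc8a1 fell by 4.20 ± 0.40 (adjusted p = 8.42e-08) and the calcium-sensing receptor gene Casr by 5.15 ± 0.58 (adjusted p = 6.76e-07). Trpv5, Calb1 and Slc24a1 had 16, 83 and 137 reads in all and were not tested. Of 12 tested genes of other magnesium transport 4 were lower and 3 higher (median -0.40). Cnnm4, which encodes a basolateral magnesium extruder of the intestine, fell by 2.95 ± 0.28 (adjusted p = 8.12e-08), while Slc41a2 rose by 2.98 ± 0.28 (adjusted p = 7.28e-08) and Cnnm2 by 2.18 ± 0.26 (adjusted p = 1.20e-06).

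Of 9 genes of other phosphate transport 5 were lower and 1 higher (median -0.88). Slc17a1 fell by 4.15 ± 0.55 (adjusted p = 4.46e-06) and the phosphate exporter gene Xpr1 by 0.88 ± 0.12 (adjusted p = 7.34e-06). Of 20 zinc and manganese transport genes 9 were higher and 4 lower (median 0.45), beside 26.9% and 26.2% of all genes. The 3 with the smallest p fell: the zinc exporter genes Slc30a1 (-3.80 ± 0.27) and Slc30a4 (-1.99 ± 0.18) and the zinc-sensing factor gene Mtf1 (-1.33 ± 0.15). Of 14 iron and copper genes 4 were lower and 1 higher (median -0.39), against the same shares. The 1 that rose was the copper pump gene Atp7b, from 0.193 to 0.648 CPM in WT cecum to 28.4 to 81 CPM (6.93 ± 0.41, adjusted p = 3.98e-10), and ferritin heavy chain Fth1 (-1.92 ± 0.19) and the ferroxidase gene Heph (-2.37 ± 0.32) fell.

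In Cdx2+/- cecum, where 17.1% of all genes were called higher and 17.3% lower, the same lists gave 4 higher and 3 lower of 13 for vitamin D metabolism and partners, 2 and 2 of 8 for vitamin D-induced genes (Cldn2 and Cyp3a11 higher, Slc37a2 and Atp2b1 lower), 1 and 4 of 10 for calcium, 2 and 4 of 12 for magnesium, 1 and 3 of 9 for phosphate, 9 and 2 of 20 for zinc and manganese, and 3 and 1 of 14 for iron and copper. Rxra was lower there by 0.98 ± 0.24 (adjusted p = 0.0036), and Slc30a4, Mtf1 and Heph were not called. In the ileum comparison 1 gene of the 7 lists was called, Hfe, which encodes a regulator of iron uptake (0.65 ± 0.13, adjusted p = 0.0282).

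**Figure D4:**
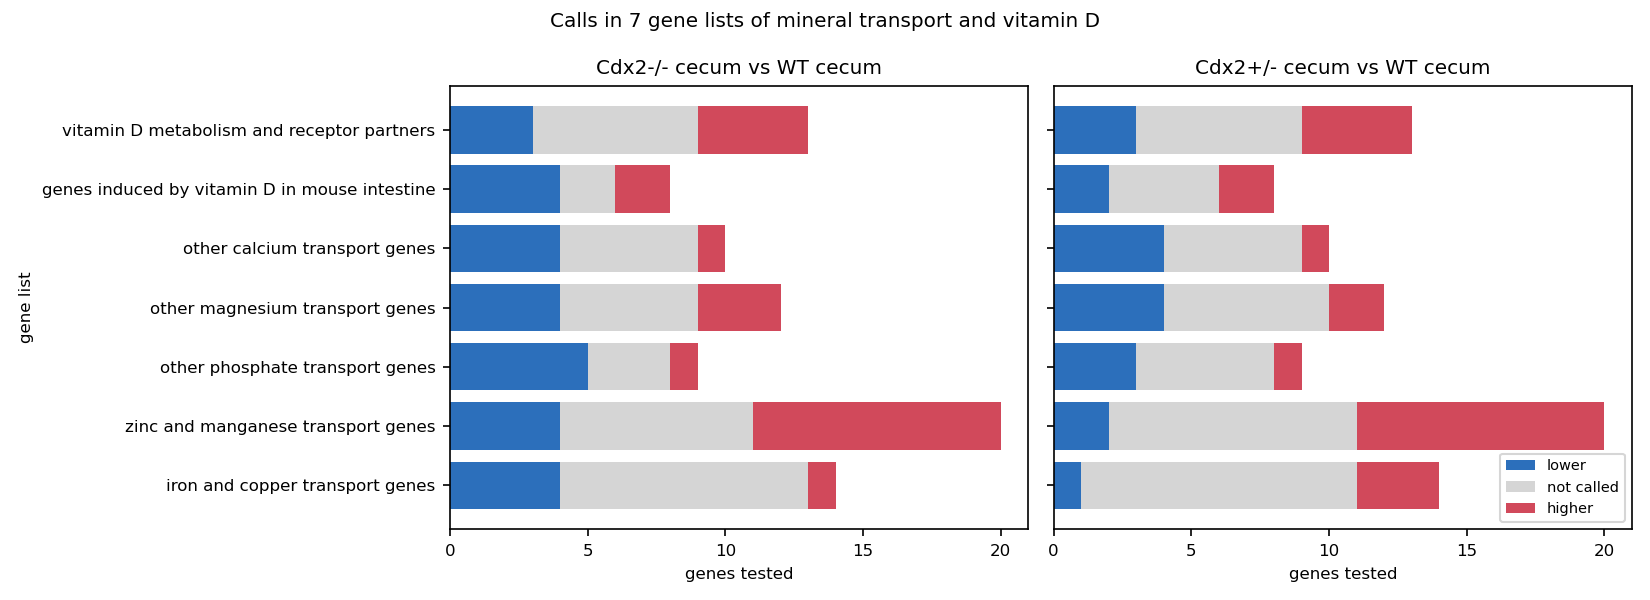
Number of tested genes (x axis) called lower, not called and called higher in 7 lists of vitamin D and mineral transport genes (y axis), for Cdx2-/- cecum (left) and Cdx2+/- cecum (right) against WT cecum. Zinc and manganese transport has 9 genes higher in each, and the other lists hold at most 4 higher. Of all genes tested, 26.9% were called higher and 26.2% lower on the left, and 17.1% and 17.3% on the right.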

How the data were processed

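Each library's deposited file lists raw counts of reads for Ensembl genes. Per the labels' protocols, total RNA was taken with Trizol and made into TruSeq mRNA v2 libraries. The tools the authors named, per the submitters' processing notes, were CASAVA, TopHat2 2.0.11, HTSeq 0.5.3p3 and GRCm38. The sources used here do not give counting options, strand or annotation release. Each file's 5 closing entries that name no gene were left out. They held reads in no gene (6.62 to 10.4%), in more than 1 gene (2 to 3.44%) and not unique (17.3 to 30%). GENCODE symbols matched 37693 of 39179 genes. No symbol matched the colonocyte marker Ms4a12.

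Groups came from the titles. The test was edgeR 4.0.16 (R 4.3.3), quasi-likelihood F test, TMM normalisation, filterByExpr, 8 groups, no block, checked on simulated counts. The simulation gave all genes the same spread and changed only genes with many reads. It does not cover genes with few reads or a library far from the rest. DESeq2 1.42.0 was an alternative. Other alternatives were 2 other normalisations, no count filter, only the groups compared, a replicate block, each Cdx2-/- set alone, set 1 replicates 2 and 3 as 1, and each library left out. Chi-square per degree of freedom between those 2 replicates was 7.03, against 53 to 507 in other pairs, and they were kept as 2. Intervals are 95% with 16 residual degrees of freedom. CPM is TMM-normalised, and per kb uses the GENCODE exon union. Named genes are the 7, up to 3 called genes per list with the smallest adjusted p in the comparison described, and the 3 genes most like each of the 7, from genes of at least 1 CPM. Aqp8, Krt20, Fabp6, Trpv5, Calb1, Slc24a1, Cyp24a1 and some list genes outside their own comparison were named outside that rule, after their values were seen. The genes, lists and markers were chosen with earlier results of these data known.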

Additional observations from a re-analysis of the deposited data

Results flagged for a closer look

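Among the 6 Cdx2-/- cecum libraries, 3 genes had 1 library far from the rest by Dixon's test, run on CPM and not on the log scale. Its chance rate of about 1 in 20 groups holds for normally spread values, which skewed CPM pooled over 2 sets need not be. This scale picks out high libraries and did not flag the low value of Trpv6 in set 2 replicate 6, 0.356 CPM. Trpv6 was 33.1 CPM in set 2 replicate 5, S100g 7.43 CPM in set 1 replicate 1 and Slc30a10 7.05 CPM in the same library. That library also had the highest colonocyte marker sum of the 6, 3622 CPM, and the part of this was not tested.

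The change that went with the Cdx2-/- label differed between cecum and ileum for 6 genes, in the contrast chosen after seeing the data (edgeR, all adjusted p at most 0.00617): -4.19 for Vdr, -6.72 for S100g, -2.57 for Atp2b1, -6.54 for Trpm6, -7.91 for Slc30a10 and -3.39 for Slc20a1. Of all genes, 18.3% were called lower in it and 16.4% higher. Cdx2 RNA was not called between the ileum groups (edgeR, 0.14, adjusted p = 0.981). Apc+/- ileum overlapped Cdx2-/- cecum for Atp2b1 and Slc20a1, and for S100g and Slc30a10 only through set 1 replicate 1. The WT cecum arm lacks the Apc allele that the ileum controls carry. Ileum replicate 2 of Cdx2-/-;Apc+/- stands apart, and without it Vdr was -2.32 and Slc30a10 -4.83.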

How the results depend on the processing

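Of 1092 recomputed values of the 7 genes, 1016 kept their direction and side of the threshold, 33 lost their call, 13 gained one and 30 changed sign, all of genes not called before or after. For Cdx2+/- against WT cecum, 6 genes in place of 3 were called with only the groups compared, beside 3029 lower of all 18037 genes. DESeq2 called 4, beside 4112 lower of all 20502 genes. For Cdx2-/-;Apc+/- against Cdx2-/- cecum the single call of S100g became 0 calls with only the groups compared, the replicate block, set 1 replicates 2 and 3 as 1, set 1 alone and set 2 alone, and 0 to 1 when a library was left out. Between the Cdx2-/- sets DESeq2 called 1 gene and edgeR 0. Between Cdx2-/-;Apc+/- cecum and ileum, leaving out a library gave 0 to 2 calls. The cause was not tested.

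The sign changes fell in 4 comparisons, given as ranges over the libraries left out. For Cdx2-/-;Apc+/- against Cdx2-/- cecum, Vdr ran from -0.82 to 0.60 and Trpv6 from -0.56 to 0.45, and Trpv6 was 0.14 against set 1 alone. Between set 2 and set 1, Vdr ran from -0.45 to 0.80, Trpv6 from -0.62 to 1.33, Atp2b1 from -0.17 to 0.17, Trpm6 from -0.52 to 2.09 and Slc30a10 from -2.0 to 0.07. With set 1 replicates 2 and 3 as 1, Vdr was -0.11 and Trpm6 -0.14, and Atp2b1 was 0.01 with RLE and with DESeq2 and 0.07 with upper quartile scaling. In the ileum, Vdr ran from -2.01 to 0.30, Atp2b1 from -0.08 to 0.19, Trpm6 from -1.11 to 0.54, Slc30a10 from -0.38 to 3.25 and Slc20a1 from -0.18 to 0.10, and the library without which Vdr, Trpm6 and Slc30a10 were lowest was replicate 2 of Cdx2-/-;Apc+/- ileum. Between the mutant tissues, Vdr ran from -2.28 to 0.57 and Slc30a10 from -3.83 to 0.36, both highest without that library.

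Replicate numbers gave no clear pairing of the libraries: in 0 of 21 pairs of groups were all correlations of same-numbered libraries over 0.1. This limit cannot exclude shared animals or batches, and WT cecum and WT stomach had 0.17, 0.03 and 0.33. With the replicate block, which leaves set 2 out, S100g lost its call for Cdx2-/-;Apc+/- against WT cecum (-3.54, adjusted p = 0.0504), against Cdx2-/- cecum (1.03) and for Cdx2-/- against Cdx2+/- cecum (-2.23), Trpm6 lost it in the last (-2.02), and Trpv6 gained one in the difference between cecum and ileum (3.37). Upper quartile scaling moved the median of all genes by up to 0.16 and other settings by up to 0.07, and Trpm6 then lost its call for Cdx2-/- against Cdx2+/- cecum (-1.66). Few reads limit the precision for Trpv6 in WT and Cdx2+/- cecum (3 to 27 reads, in libraries of 51716082 to 71485860) and for S100g in set 2 (1 to 7 reads).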
